A study of Mus musculus with 16 samples.

Results

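Binding of POU factors, their mutants and Sox2 was examined around 5 mouse genes, Kremen1, Lemd1, Gnb1, Ttc30a1 and Slc10a7, during reprogramming of fibroblasts. All summits of 13 ChIP-seq libraries that fell in the gene bodies or within 20 kb to either side were taken (mouse build mm10, the same as GRCm38, with GENCODE M21 gene models). A summit is the base at which a called peak is highest. The 5 genes were chosen by the very strong Oct4 or Oct4 S151M summits with POU homodimer motifs that they hold or adjoin, so those scores and motifs are given here as a description. The Sox2 and Oct6 libraries played no part in that choice. The windows sum to 634092 bp and hold 100 of the 227116 summits of the series. Summits within 100 bp of the next one were joined into elements, which gave 66 elements in the windows of 172918 in all, numbered along the chromosome within each gene.

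OG2 MEFs, which are fibroblasts of mouse embryos with a GFP reporter driven by the Oct4 promoter, were used throughout. All received pMX retroviruses for Sox2 and Klf4 (SK) plus 1 POU factor, and day 0 was the change to iCD1, a chemically defined reprogramming medium. The Oct4 antibody was used on Oct4-SK cells at days 1, 5 and 7, on Oct4defSox2-SK cells at days 1 and 5, and on Oct4 S151M-SK cells at day 1. The Sox2 antibody was used on Oct4-SK, Oct4defSox2-SK and Oct6-SK cells at days 1 and 5, and the Oct6 antibody on Oct6 M151S-SK cells, day 1 by the title and day 2 by another label. Oct4defSox2 is Oct4 with the changes I21Y and D29R in the surface that meets Sox2 on DNA. The S151M change gives Oct4 the residue that Oct6 has at that place, and M151S is the reverse change in Oct6; this residue governs how well the proteins pair with themselves. Transduced cultures are mixtures, so fewer bound cells and weaker binding in each cell cannot be told apart. Each group had 1 library, so the differences given have no replicate check and no test was made. A library of wild-type Oct6 ChIP was not analysed here.

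The score of a summit is the −log10 p-value of MACS2, which grows with read depth and was set within 1 library. Libraries are therefore set side by side by rank, where rank 1 is the highest score of that library. The lists held 1038 summits (Oct4defSox2 at day 5) to 101170 summits (Oct4 S151M). The lowest scores were close to 4 in 12 libraries and 2.30 for Oct6 M151S. No summit at an element means only that none was called there. The summit lists do not give read depths, which were not used here.

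POU proteins bind DNA with a POU-specific domain and a POU homeodomain joined by a linker. On MORE, a palindrome, 2 molecules sit as a homodimer, and MORE+1 is the same palindrome with 1 more base between its arms. PORE is a longer palindrome for another homodimer arrangement. The octamer ATGCAAAT takes a single molecule, and the SoxOct composite joins a Sox site to an octamer and is bound by Oct4 with Sox2. Oct4 with Sox2 on SoxOct elements is known for its part in the enhancers of pluripotent cells, whereas MORE is a preferred element of Oct6. Kremen1 is a receptor for Dickkopf proteins, which inhibit Wnt signalling. Lemd1 encodes a LEM domain protein, Gnb1 a beta subunit of heterotrimeric G proteins, Ttc30a1 a tetratricopeptide repeat protein of intraflagellar transport, and Slc10a7 a membrane protein of solute carrier family 10.

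The lead element of each gene was the one with a homodimer motif and the highest score in any Oct4-antibody library. The sequences of the Kremen1, Lemd1, Gnb1 and Ttc30a1 leads are given to show the homodimer matches under these summits. That of Lemd1 element 8 is shown because it repeats the motif match of the Kremen1 lead under a far weaker summit. All are the plus strand of GRCm38, 5′ to 3′, from RefSeq, and capitals mark MORE or MORE+1 matches with up to 1 mismatch. The stretches are chr11:5237880-5237980, chr1:132222330-132222430, chr4:155533238-155533338, chr2:75985535-75985635 and chr1:132227380-132227480 in the order shown.
Kremen1 element 1: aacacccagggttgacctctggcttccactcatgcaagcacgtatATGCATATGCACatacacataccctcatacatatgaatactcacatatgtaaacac
Lemd1 element 7: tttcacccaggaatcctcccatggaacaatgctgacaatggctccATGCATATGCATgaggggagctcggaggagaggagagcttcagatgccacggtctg
Gnb1 element 10: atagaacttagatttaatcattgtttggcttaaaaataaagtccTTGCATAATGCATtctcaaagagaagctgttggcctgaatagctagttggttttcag
Ttc30a1 element 6: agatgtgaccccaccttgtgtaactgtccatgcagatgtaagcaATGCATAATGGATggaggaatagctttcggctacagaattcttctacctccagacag
Lemd1 element 8: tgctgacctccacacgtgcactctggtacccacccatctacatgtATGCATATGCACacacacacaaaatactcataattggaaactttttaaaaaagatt

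Matches were sought on both strands within 100 bp of the element's centre, with up to 1 mismatch for MORE, MORE+1 and PORE, up to 2 for SoxOct and 0 for the octamer. The Kremen1 lead had 1 MORE match (ATGCATATGCAC, 1 mismatch). The Lemd1 lead had the only homodimer match of the windows without a mismatch (ATGCATATGCAT). Gnb1 and Ttc30a1 had MORE+1 matches, TTGCATAATGCAT and ATGCATAATGGAT, each with 1 mismatch. The Slc10a7 lead had 3 MORE matches with 1 mismatch each. A SoxOct match with 2 mismatches overlapped the first of these, so the same bases count for both motifs. Within the whole Oct4 S151M peaks, of 844 to 1334 bp, the homodimer matches numbered 3 at Slc10a7 and 1 at each of the other 4 leads.

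For the Slc10a7 lead, 100% of the 201-base window was repeat-masked in the reference. The Kremen1 window was masked over 43.8%, Lemd1 over 12.4%, and Gnb1 and Ttc30a1 over 0%. The central 50 bases of each lead had 0 other exact copies in the genome. At Lemd1 the MORE match starts 44 bp past the element's centre, outside these 50 bases, so copies of the stretch around it were not sought.

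Kremen1 element 1 (chr11:5237923-5237950) lies in an intron of Kremen1, 23622 bp into the gene on the minus strand. It had summits in 7 of the 13 libraries, all within 27 bp of each other. Oct4 scored 310.8 at day 1, 242.3 at day 5 and 108.4 at day 7. These were rank 1 of 8216, rank 4 of 4854 and rank 12 of 3638, so the element stayed near the top of all 3 lists. Oct4defSox2 scored 318.6 at day 1 (rank 22 of 31070) and 18.9 at day 5 (rank 190 of 1038). Counted from the top, the day 5 Oct4defSox2 summit stood at 18.3% of a short list, and the 2 lists differ in length. Oct4 S151M scored 1123.5, rank 14 of 101170, with the largest fold enrichment over the local background among the 5 leads. Oct6 M151S had a weak summit of 3.7 (rank 10234 of 22804, 2.42-fold, −log10 q-value 0.725), below the threshold used for the other libraries. None of the 6 Sox2 libraries had a summit at the element. The nearest Sox2 summit, from Oct4defSox2-SK at day 5 with a score of 10.1, was 345 bp away and forms Kremen1 element 2.

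Lemd1 element 7 (chr1:132222276-132222387) also lies in an intron, 30900 bp from the gene's start and 5853 bp before the nearest other annotated Lemd1 start. It too had summits in 7 libraries. Oct4 scored 92.5 at day 1 (rank 52), 285.1 at day 5 (rank 1) and 123.1 at day 7 (rank 7). Oct4defSox2 scored 417.5 at day 1 (rank 12) and 218.5 at day 5 (rank 4 of 1038). The element was thus among the first 52 summits of each of these 5 lists, which differ in length. Differences between days were not tested. Oct4 S151M scored 1098.2 (rank 25, 148-fold). The seventh summit was Sox2 in Oct6-SK at day 5, with a score of 9.0 (rank 1170 of 2673). It lay 104.5 bp from the centre of MORE, whereas the 6 Oct4-antibody summits lay within 9.5 bp of it. A single Sox site, the letters CCNTTGT on either strand, was found here as ACAATGG, with its start 11 bp before that of MORE.

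Gnb1 element 10 (a single base, chr4:155533279-155533279) lies in an intron, 41918 bp from the gene's start and 5826 bp past the nearest annotated Gnb1 start. Its only summit was Oct4 S151M, with a score of 1094.6 (rank 27 of 101170, 146-fold). The nearest Oct4 summit at day 1 was 266 kb away, that of Oct4 at day 5 was 8.52 kb away, and that of Oct4defSox2 at day 1 was 49.2 kb away. Ttc30a1 element 6 (chr2:75985571-75985579) lies between genes, 3608 bp before the Ttc30a1 start. Oct4 S151M scored 1120.8 there (rank 15, 150-fold), and Oct4defSox2 at day 1 scored 20.3 (rank 6560 of 31070). The other 11 libraries had no summit at the Ttc30a1 lead. Slc10a7 element 16 lies in an intron, 179602 bp from the gene's start. Oct4 S151M scored 1113.6 (rank 23, 138-fold) and Oct4 at day 1 scored 164.7 (rank 11 of 8216). Neither Oct4 at day 5 or 7 nor Oct4defSox2 had a summit at this element, and the nearest Oct4defSox2 summit of day 1 was 31.2 kb away.

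**Figure D1:**
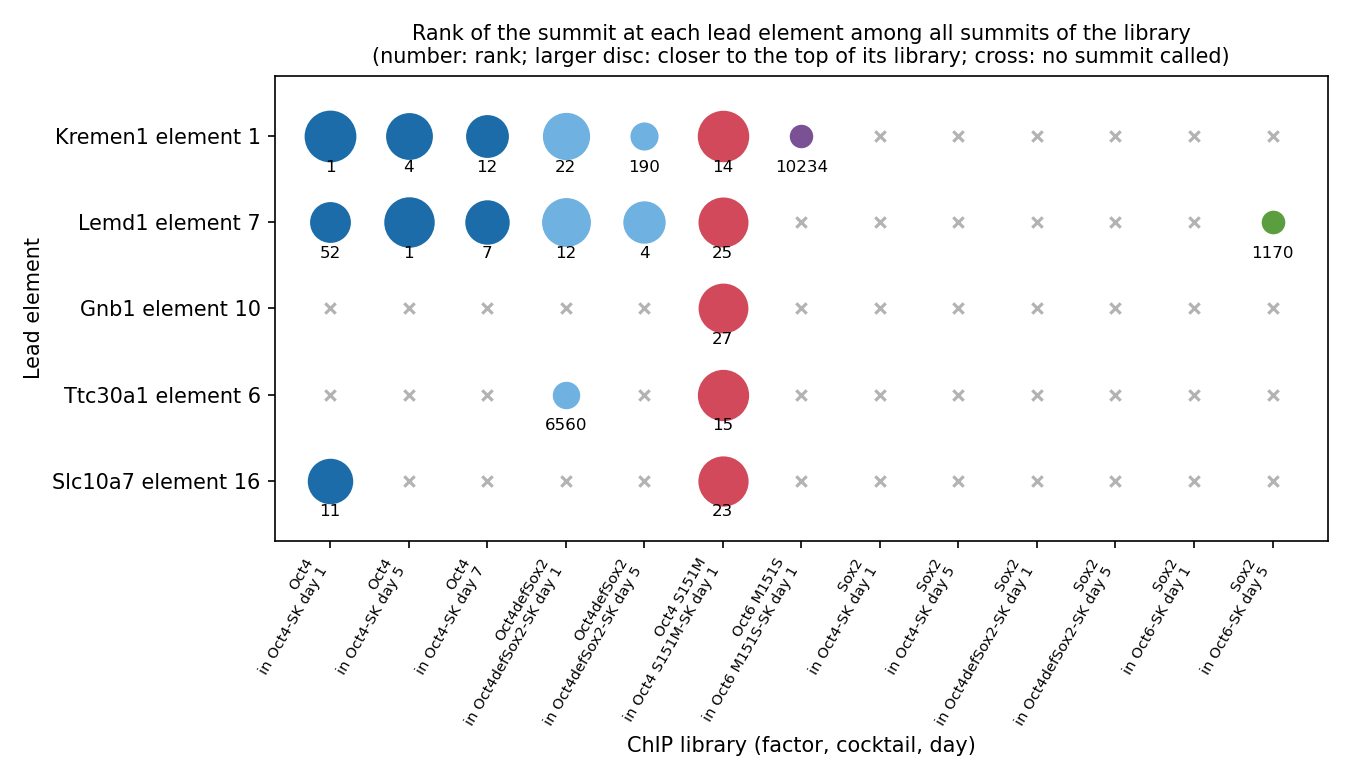
Rank of the summit at each of the 5 lead elements (rows) in the 13 ChIP libraries (columns). The number under a disc is the rank, a larger disc is closer to the top of its list and a cross marks no summit: the leads are at ranks 14 to 27 for Oct4 S151M, while Oct4 has summits at Kremen1, Lemd1 and Slc10a7 and none at Gnb1 or Ttc30a1.

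The leads were thus alike in the Oct4 S151M library, which helped to choose them. They differed in the Oct4 libraries, whose scores also helped to choose the genes, and in the Oct4defSox2 libraries. The Oct4 counts that follow are therefore a description. Of the 5, 1 had a Sox2 summit, in 1 of the 6 Sox2 libraries, against 2.14% of all elements with a homodimer motif. This was the Lemd1 summit 104.5 bp from the centre of MORE, which a joining distance of 50 bp splits off. Oct4 at day 1 had a summit at 3 of the 5, Oct4defSox2 at day 1 at 3 of the 5, and both at Kremen1 and Lemd1. Of all Oct4 S151M summits, 6.34% had an Oct4 summit at day 1 and 13.3% an Oct4defSox2 summit at day 1. At days 5 and 7 Oct4 had summits at 2 of the 5, Kremen1 and Lemd1, as had Oct4defSox2 at day 5. The day 5 shares of all Oct4 S151M summits were 3.07% for Oct4 and 0.616% for Oct4defSox2. Rank 27 was the lowest of a lead, so the leads were set among the 27 strongest Oct4 S151M summits, with scores of 1094.6 to 1234.9. These 27 include the 5 leads, so they are not a separate group for comparison. Of these 27, 22 had a homodimer motif, 24 an Oct4 summit at day 1, and 25 an Oct4defSox2 summit at day 1. At day 5, 14 of the 27 (51.9%) had an Oct4 summit and 11 (40.7%) an Oct4defSox2 summit. The 2 without an Oct4defSox2 summit at day 1 were the Slc10a7 and Gnb1 leads. Gnb1 was the 1 site of the 27 with no summit of Oct4 or Oct4defSox2 at day 1 or 5. In the first 100 Oct4 S151M summits, 9 had no summit in these 4 libraries. In the first 1001, tied ranks included, the share was 34.9%, and in the whole list it was 83.8%.

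Away from the leads, the highest score of the windows was 412.5. Of the 66 elements, 48 had a summit in 1 library, 11 in 2, 4 in 3, 1 in 4 and 2 in 7. Oct4 S151M had a summit at 36 elements, against 58.5% of all elements of the series, and was alone at 25 of them (47.5% of all). A further 12 had Sox2 summits only (17.9% of all), and 11 had an Oct6 M151S summit only (11.3% of all). By gene, there were 13 elements at Kremen1, 11 at Lemd1, 13 at Gnb1, 6 at Ttc30a1 and 23 at Slc10a7, the longest of the genes. Introns held 45 elements, 17 lay between genes, 3 in a UTR and 1 in a coding exon.

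**Figure D2:**
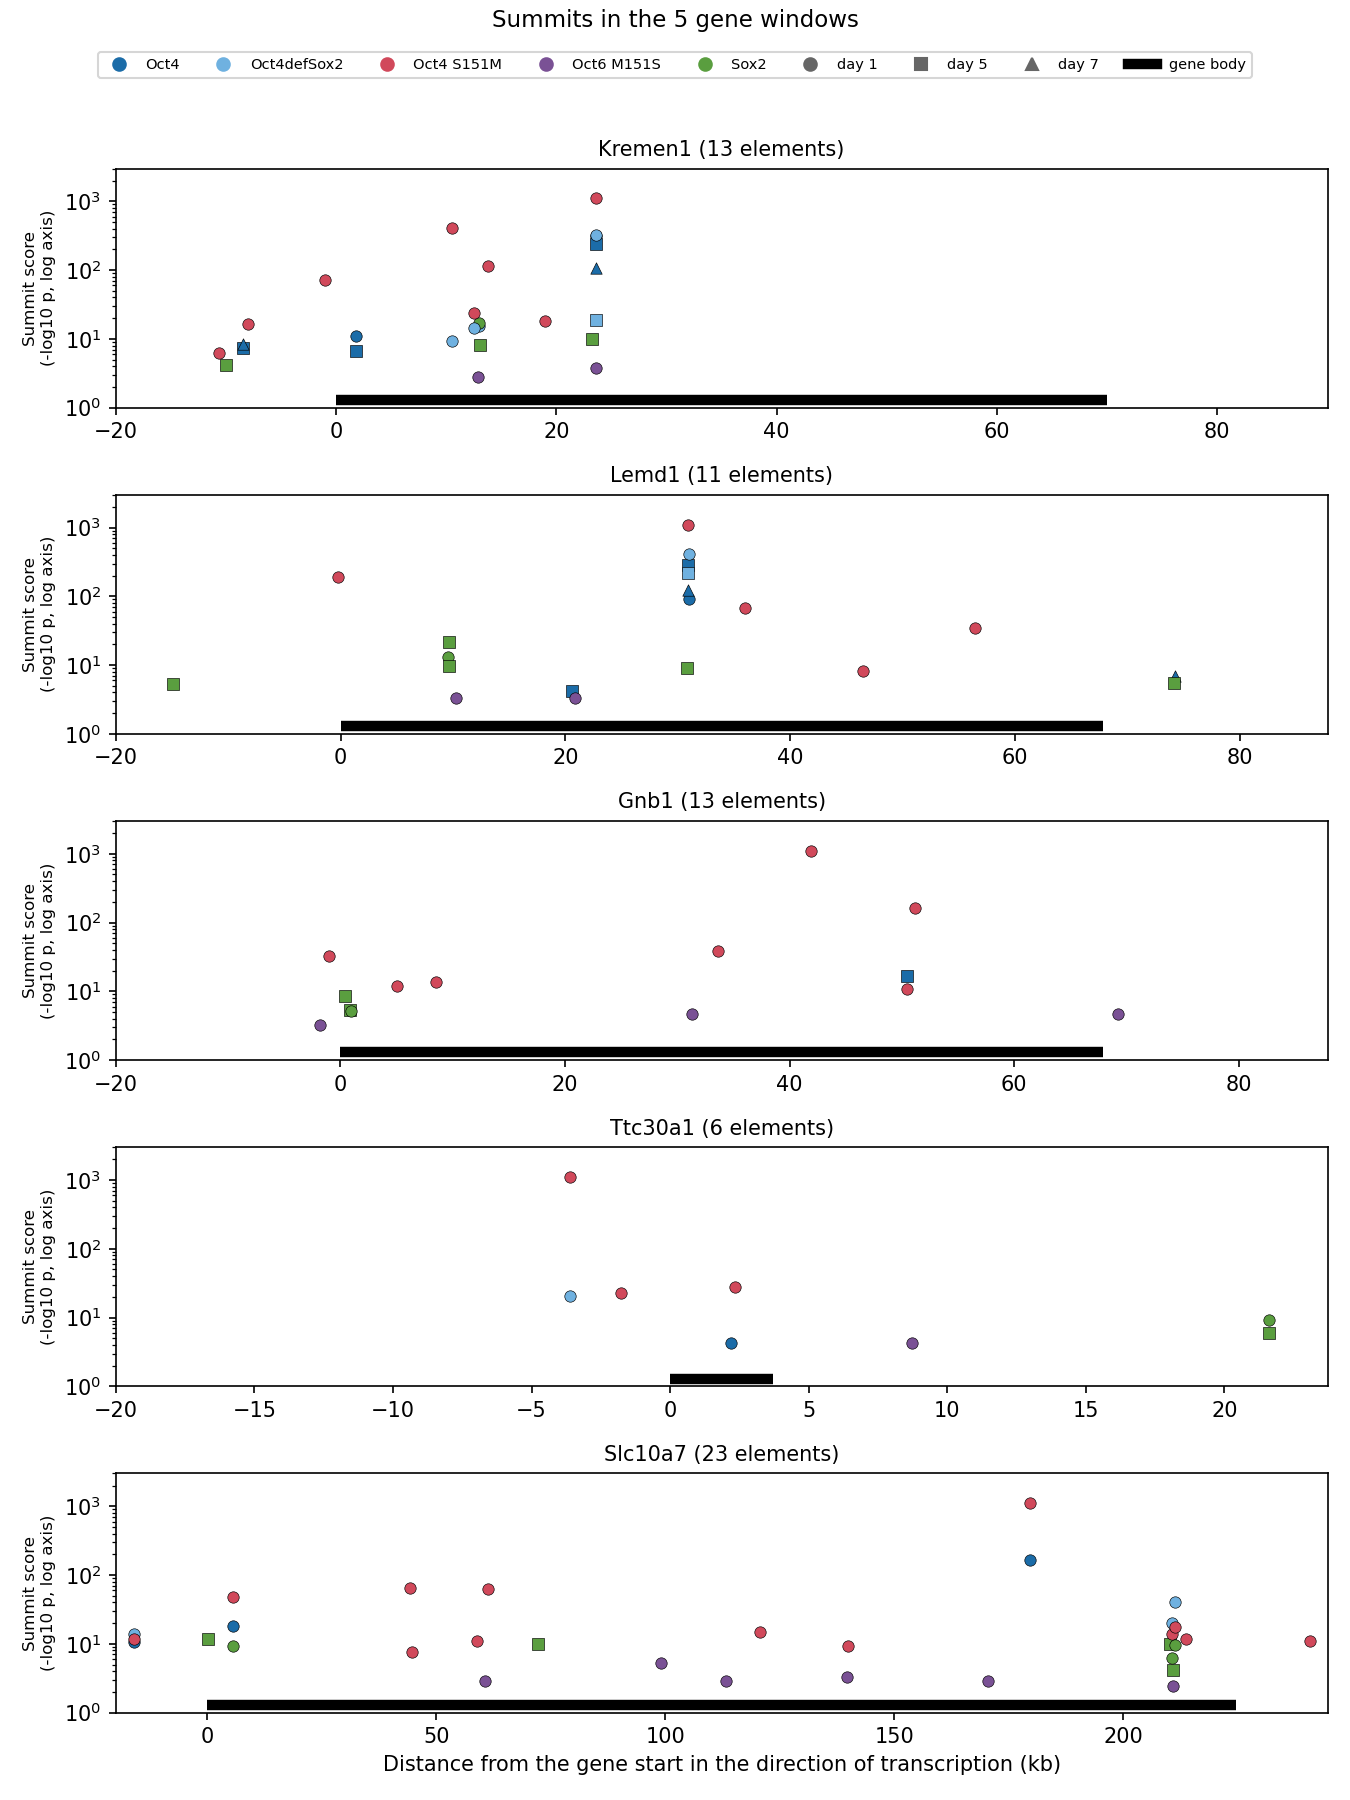
Scores (−log10 p-value, log axis) of the 100 summits of the 5 windows against distance from the gene's start in kb, with colour for the factor, shape for the day and a black bar for the gene body. In each window the highest point is an Oct4 S151M summit between 1094.6 and 1123.5, and Oct4 or Oct4defSox2 points above 90 stand at the Kremen1, Lemd1 and Slc10a7 leads.

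A homodimer motif was found at 10 of the 66 elements, or 7 with MORE and 3 with MORE+1, against 14.7% of all elements of the series. Windows 2 kb away had one in 1.15%. No element of the 5 genes held PORE, which was in 0.177% of all elements and 0.364% of windows 2 kb away. SoxOct matches were found at 3 elements, against 4.45% of all elements and 1.11% of windows 2 kb away. Besides the Slc10a7 lead, these were Kremen1 element 11 (CATTCTCATGGTAAT) and Gnb1 element 12 (CATTAAAATGCAAAT), where the last 8 bases are also an octamer match. The octamer was at 2 elements (5.14% of all), and the single Sox site at 9 (14.9% of all). The AP-1 site TGANTCA, a site of Jun and Fos factors, was at 5 elements (12.7% of all), and KLF sites with the letters GGGNGNGGC were at 3 (3.75% of all). The Kremen1 lead had 2 AP-1 sites, TGAGTCA and TGAATCA, side by side 61 bp past its centre. Apart from this lead, AP-1 and a homodimer motif were together at Slc10a7 element 6. Since the genes were selected on homodimer motifs, nothing is read from these motif counts.

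All 10 elements with a homodimer motif had an Oct4 S151M summit, as did 98% of such elements in the series. Besides the 5 leads, these were Kremen1 element 7 (chr11:5251009-5251046), with Oct4 S151M at 412.5 (rank 1292) and Oct4defSox2 at day 1 at 9.4 (rank 18893). Lemd1 had 3 more, each with a summit of Oct4 S151M only. Element 2, at 247 bp before the Lemd1 start, scored 193.1, element 8 scored 66.9 and element 10 scored 34.8. Slc10a7 element 6, the weakest, scored 10.9 (rank 79646), with its summit 49.5 bp from the motif's centre. Across these 10 elements Oct4 S151M scored from 10.9 to 1123.5, with a median of 753.6. The 5 leads among them were picked for scores of 1094.6 to 1123.5, and the median of the other 5 was 66.9. At the other 26 Oct4 S151M elements the scores went from 6.2 to 163.0, with a median of 17.0. In the whole library the medians were 30.2 with and 17.7 without a homodimer motif. The scores and motifs chose the genes, so the values of the windows are a description. The highest score without a homodimer motif belonged to Gnb1 element 12, the one with SoxOct and octamer letters.

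**Figure D3:**
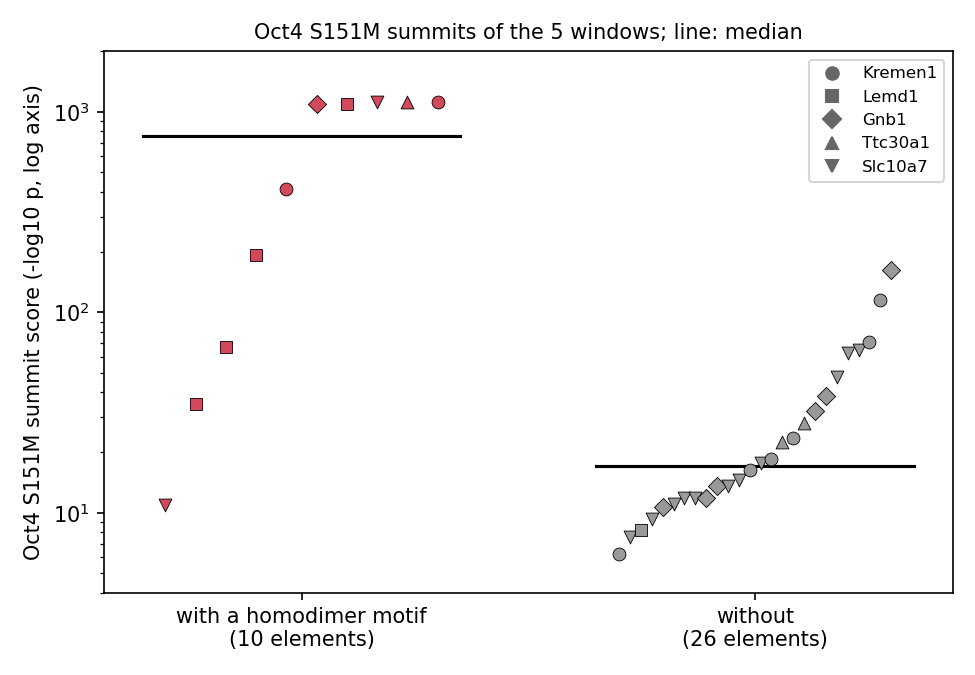
Oct4 S151M scores (−log10 p-value, log axis) of 10 elements with and 26 without a homodimer motif in the 5 windows, with marker shape for the gene and a line at the median of 753.6 or 17.0. The 5 leads, picked for their scores, are the highest points, the other 5 with the motif have a median of 66.9, and the ranges overlap, as 3 elements with the motif score below the 163.0 that is the highest score without it.

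At the 10 elements with a homodimer match, most Oct4-antibody summits lay close to it. The Oct4 S151M summits of the 5 leads were 5.5 to 17.5 bp from the centre of the nearest match. At Kremen1 the 6 Oct4-antibody summits lay 0.5 to 19.5 bp to its right, and the Oct6 M151S summit lay 7.5 bp to its left. At Lemd1 they fell on both sides, from 9.5 bp to the left to 6.5 bp to the right. At the Slc10a7 lead the Oct4 S151M and the Oct4 day 1 summit were each 6.5 bp from the nearest of the 3 matches, but not from the same one, as the Oct4 summit was 24.5 bp from the first. With matches this close together, neither summit can be assigned to one of them.

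**Figure D4:**
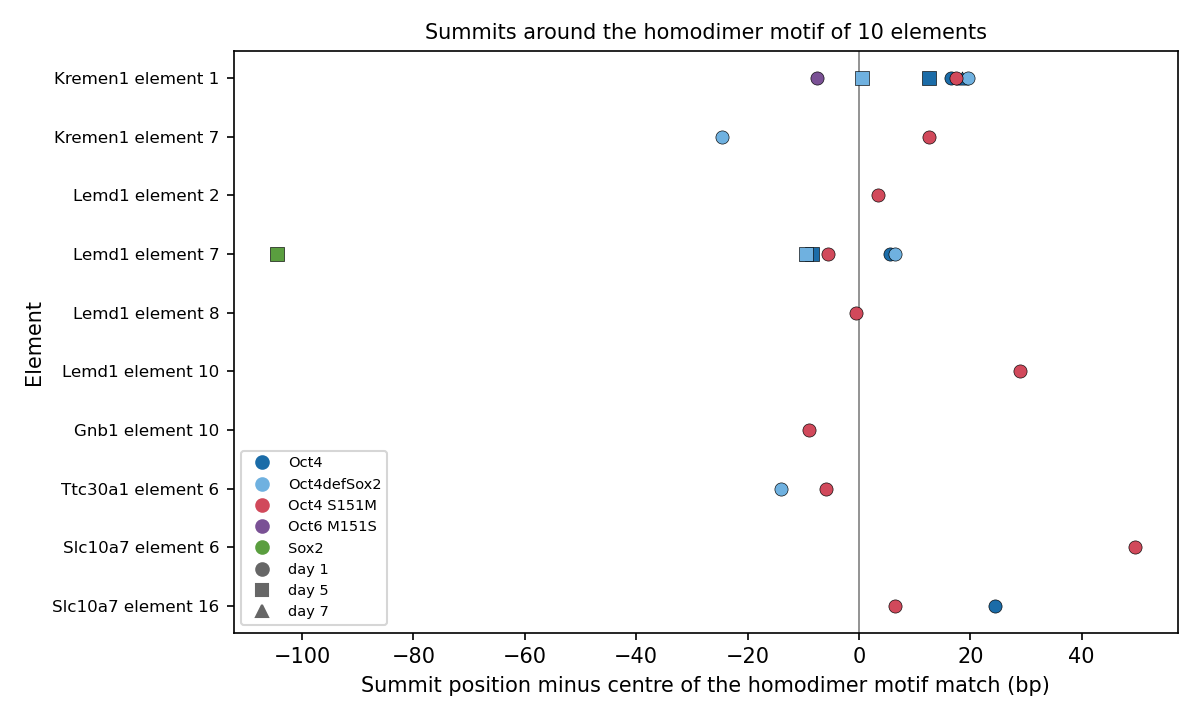
Position of each summit minus the centre of the homodimer match (bp; the first of 3 for Slc10a7 element 16) for the 10 elements with a match, with colour for the factor and shape for the day. Apart from Sox2 at Lemd1 element 7 (104.5 bp away) and the Oct4 S151M summit of Slc10a7 element 6 (49.5 bp away), the summits lie within 29.0 bp of the centre.

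Elements with the same match could differ in score. Over all elements of the windows that hold the match of the Kremen1 lead, ATGCATATGCAC, the Oct4 S151M score went from 66.9 at Lemd1 element 8 to 1123.5 at the Kremen1 lead itself. On chromosomes 1 to 19, X and Y, ATGCATATGCAC occurred 2128 times on either strand, and 34.3% of the copies had an Oct4 S151M summit within 100 bp. The median score at those was 31.4, and the Kremen1 lead was the highest. The Lemd1 match ATGCATATGCAT occurred 1624 times, with an Oct4 S151M summit at 84.7%, an Oct4 summit of day 1 at 2.96% and an Oct4defSox2 summit of day 1 at 5.79%. TTGCATAATGCAT of Gnb1 occurred 144 times, 77.8% with an Oct4 S151M summit, and ATGCATAATGGAT of Ttc30a1 occurred 110 times, 66.4% with one. In both cases the lead of the gene had the highest score of all copies. The leads were chosen for their scores, so their places among the copies are a description.

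Of the 66 elements, 13 had summits of 2 or more Oct4-antibody libraries, against 10.5% of all elements. These were 5 elements each at Kremen1 and Slc10a7 and 1 at each of the other 3 genes. Oct4 at day 1 had 7 sites in the windows. An Oct4 summit at day 5 was found at 3 of the 7, against 24.5% of all Oct4 day 1 sites, namely the Kremen1 and Lemd1 leads and Kremen1 element 8. That element (chr11:5259707-5259756), 1827 bp into Kremen1, scored 11.1 at day 1 (rank 4183 of 8216) and 6.7 at day 5 (rank 3353 of 4854). An Oct4 S151M summit was at 5 of the 7 (78.2% of all), and an Oct4defSox2 summit of day 1 at 3 of the 7 (57.4% of all). The 2 without Oct4 S151M were Kremen1 element 8 and Ttc30a1 element 4. The latter scored 4.3, in the coding exon of Ttc30a1 and 138 bp from an Oct4 S151M summit of 28.0. In the other direction, 5 of the 36 Oct4 S151M sites had an Oct4 summit at day 1 (6.34% of all). Oct4defSox2 at day 1 had 9 sites, of which 2, the Kremen1 and Lemd1 leads, had a day 5 summit (2.35% of all). Oct4 and Oct4 S151M scores helped to choose the genes, and with 7 or 9 sites nothing further is read from the shares.

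Sox2, which the choice did not use, had a summit at 18 of the 66 elements, against 24.8% of all elements. They were 3 at Kremen1, 4 at Lemd1, 3 at Gnb1, 1 at Ttc30a1 and 7 at Slc10a7. By library, Sox2 in Oct4defSox2-SK at day 5 had 11 summits in the windows, Sox2 in Oct4-SK had 7 at day 1 and 3 at day 5, and Sox2 in Oct6-SK had 1 at day 5. Sox2 in Oct4defSox2-SK and in Oct6-SK at day 1 had 0. The lists of these 6 libraries held, in the same order, 21563, 15222, 5832, 2673, 5794 and 3242 summits. Of the 18, 1 was at an element with a homodimer motif, the Lemd1 lead, against 1.27% of all elements with a Sox2 summit. At 5 of the 66 elements an Oct4-antibody and a Sox2 library both had summits (6.64% of all).

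Apart from the Lemd1 lead, no element with a Sox2 summit carried a homodimer or SoxOct match. Kremen1 element 5 (chr11:5248518-5248664) had Sox2 in Oct4-SK at 17.0 on day 1 (rank 1115 of 15222) and 8.2 on day 5 (rank 3134 of 5832). It also had Oct4defSox2 at day 1 at 15.5 and Oct6 M151S at 2.8. Lemd1 element 3 (chr1:132201015-132201056) had Sox2 summits only. In Oct4-SK they scored 13.3 on day 1 (rank 2302 of 15222) and 9.6 on day 5 (rank 2496 of 5832). In Oct4defSox2-SK the summit scored 21.9 on day 5 (rank 2324 of 21563). The element lies in a UTR, 72 bp past an annotated Lemd1 start within the gene, where Lemd1 and the gene model AC124108.1 overlap. Slc10a7 element 3 (chr8:78514851-78514915), in an intron, had Oct4 at day 1 at 18.0, Oct4 S151M at 47.5 and Sox2 in Oct4-SK at day 1 at 9.2. Near the far end of Slc10a7, element 18 (chr8:78720036-78720100) had Oct4defSox2 at day 1 at 20.3, Oct4 S151M at 13.7 and Sox2 in Oct4-SK at day 1 at 6.2, beside a single Sox site. It belongs to a run of close elements, numbered 17 to 21. Of these, element 21 had Oct4defSox2 at day 1 at 40.3 and Oct4 S151M at 17.7. Slc10a7 element 1 (chr8:78493234-78493256), 16101 bp before the gene, had Oct4 at day 1 at 10.7, Oct4defSox2 at day 1 at 13.7 and Oct4 S151M at 11.8. At the gene starts, Sox2 in Oct4defSox2-SK at day 5 had a summit of 11.6 at 58 bp past the Slc10a7 start and one of 8.6 at 402 bp past the Gnb1 start.

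Oct6 M151S, also outside the choice, had summits at 14 of the 66 elements, against 13.2% of all elements, with scores of 2.4 to 5.3. This is 22.1 summits per Mb in the windows and 8.37 per Mb in the genome. For Oct4 S151M, which helped to choose the genes, the figures were 56.8 and 37.1. For Sox2 in Oct4-SK they were 11 and 5.58 at day 1, and 4.73 and 2.14 at day 5. For Sox2 in Oct4defSox2-SK they were 0 and 2.13 at day 1, and 17.3 and 7.91 at day 5. For Sox2 in Oct6-SK they were 0 and 1.19 at day 1, and 1.58 and 0.981 at day 5. The windows are genes with flanks, whereas the genome figure is over whole chromosomes, and the difference was not tested. The −log10 q-values of the Oct6 M151S summits in the windows went from 0.18 to 1.52, so all were weak by that measure. The highest of them was Slc10a7 element 10 (rank 3345 of 22804), which had no other library. Of the 10 elements with a homodimer motif, the Kremen1 lead was the 1 with an Oct6 M151S summit (1.02% of all such elements). The other 2 elements that Oct6 M151S shared were Kremen1 element 5 and Slc10a7 element 19, which had Sox2 as well.

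The 51 elements with no homodimer motif and fewer than 3 libraries make up the rest. Of these, 20 had Oct4 S151M alone, with scores of 6.2 to 163.0 and a median of 17.4, and they were spread over all 5 genes (5 at Kremen1, 1 at Lemd1, 5 at Gnb1, 2 at Ttc30a1 and 7 at Slc10a7). Another 7 had other or several Oct4-antibody libraries, and their highest scores went from 4.2 to 40.3. Sox2 alone was at 11, with scores of 4.2 to 11.6, and Oct6 M151S alone at 11, with scores of 2.8 to 5.3. Kremen1 had 0 of the elements with Oct6 M151S alone, and Slc10a7 had 5. The last 2 were Lemd1 element 11, with Oct4 at day 7 and Sox2 in Oct4-SK at day 5, and Slc10a7 element 19. Ttc30a1 has a neighbouring paralog, Ttc30a2, and the central 50 bases of Ttc30a1 elements 3 and 4, which lie in the gene, had 0 other exact copies in the genome.

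The edges of the windows are arbitrary. A strong Oct4 S151M summit of 276.17 lay 625 bp outside the upper edge of the Gnb1 window, within Nadk, and the last summit inside, 18613 bp from the edge, was Oct6 M151S at 4.73. At Ttc30a1 an Oct4 S151M summit of 112.0 lay 1000 bp outside the lower edge, and the first inside, at 2109 bp, was Sox2 in Oct4defSox2-SK at day 5 at 5.95. The windows also reach Znrf3, Gm10188, Ttc30a2, Pde11a and Rbmxl1, so an element near a member need not act on it, and expression was not analysed here.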

How the data were processed

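ChIP-seq libraries from reprogramming OG2 MEFs were used as the summit lists that the authors deposited. Per the labels, tools were Bowtie2 2.2.5, SAMtools, MACS2 and bedtools with mm10. Scores are −log10 p-values that the authors' MACS2 gave per library. Peak tables, deposited for 2 libraries (Oct4 S151M, Oct6 M151S), added the enrichment as a ratio over local background and the −log10 q-value. The 3 inputs had no files here, and no sample had a replicate, so no test was made. The sequence of 1 lead element is not reported here. The members, motifs and lists were chosen with earlier results of these data known.

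Summits of all 13 libraries were joined within 100 bp, and elements with their centre in a gene window were kept. An element was described singly if it had a homodimer motif, 3 or more libraries or the top score of its window. Motifs were consensus strings, sought on both strands in 172804 elements of chromosomes 1 to 19, X and Y and 2 kb to either side. The octamer, Sox, AP-1 and KLF strings were added later. On simulated data, 2400 of 2400 planted matches were found. Python 3.11.15, numpy 2.4.6, pandas 2.3.3, pysam 0.24.0 and matplotlib 3.10.9 were used. Alternatives were the joining distance, flank, score minimum, 1 summit per peak, equal list lengths and motif stringency.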

Additional observations from a re-analysis of the deposited data

Results flagged for a closer look

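At Lemd1 element 7 the score of Oct4 at day 5 minus day 1 was 192.6, and that of Oct4defSox2 was -199.0. The signs are opposite, with 1 library each, but the difference was not tested and scores depend on the depth of each library, so no direction is read from them. The ranks were 52 of 8216 and 1 of 4854 for Oct4 at days 1 and 5, and 12 of 31070 and 4 of 1038 for Oct4defSox2.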

How the results depend on the processing

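Of 90 recomputed counts, 77 stayed within 1.5 times the value reported and 13 did not. For sites with a summit of another library, the count was judged and not its share. With equal list lengths, Oct4 day 1 sites with a day 5 summit went from 3 of 7 to 2 of 3. Those of Oct4defSox2 went from 2 of 9 to 2 of 2. A score of at least 10 left 39 elements in the windows and 6 with a Sox2 summit. With the strongest 1038 summits of each library there were 6 elements in the windows, 5 with a homodimer motif, 1 with SoxOct, 3 in 2 or more Oct4-antibody libraries and 0 with a Sox2 summit; the Ttc30a1 lead then had 1 library, and 3 of 3 Oct4 day 1 sites had an Oct4 S151M summit. Allowing 1 mismatch fewer gave 1 element with a homodimer motif and 0 with SoxOct, and 1 mismatch more gave 24 and 11. At 50 bp the Sox2 summit of Lemd1 element 7 was split off, leaving 6 libraries. No paired analysis was possible because each group had 1 library and no test was made. Comparisons between libraries rest on ranks in lists of different length, with 1 library per group and read depths not used here.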
